A study of Mus musculus with 8 samples.

Results

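The proteasome genes of the embryonic outflow tract were examined across all 8 RNA-seq libraries of the series, 4 from control embryos and 4 from *Mib1V943F/+ Gata6STOP/+* embryos at embryonic day 11.5. Members were the genes of the expression table whose symbol begins with Psma, Psmb, Psmc, Psmd, Psme, Psmf or Psmg followed by a digit. The pattern found 46 of 14608 genes. Of these, 16 encode parts of the 20S core particle, 17 encode parts of the 19S regulatory particle, 3 and 4 encode assembly chaperones of the 19S particle and of the core, 4 encode other activators of the core, and 1 (*Psmf1*) encodes an inhibitor. The remaining gene, *Psmc3ip*, has a symbol that matches but encodes a recombination factor that acts with the meiotic recombinase and is not a proteasome subunit. *Psmb8*, *Psmb9* and *Psmb11*, the other inducible or tissue-restricted core subunits, were not analysed here.

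The proteasome is the protease that degrades proteins tagged with ubiquitin. Its core is a barrel of stacked alpha and beta rings, with the proteolytic sites inside, on 3 of the beta subunits. The regulatory particle binds the ubiquitin chains, removes them, and unfolds the substrate with a ring of ATPases before threading it into the core. MIB1 is a ubiquitin ligase that ubiquitinates ligands of NOTCH, and GATA6 is a transcription factor required for the outflow tract, the segment at the arterial pole of the heart from which the aortic and pulmonary valves form. The V943F allele of *Mib1* changes an amino acid of the ligase, and the STOP allele of *Gata6* was carried in one copy. Both alleles were carried together in the mutant embryos, so the part of each cannot be told apart, and the labels give the other group only as Control.

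Each library was made from polyadenylated RNA of pooled outflow tracts. A pool held 3 individuals by the labels, and the study's own methods state a different count of pools and of tissues in each, so how many embryos stand behind a library is not settled. Values were in reads scaled to a common library size (CPM), on the scaling of the authors. The reads on listed genes numbered 10669420 in control library 2, the shallowest, and at most 28212669 in the other control libraries. They ran from 21064242 to 30469165 in the mutant libraries. *Gata6* averaged 262 ± 18.5 against 249 ± 36.1 CPM (SD, n = 4 each, control first), and its difference (log2 fold change -0.08, adjusted p = 0.752 from limma) was within the spread, as was that of *Mib1* (log2 fold change 0.07, adjusted p = 0.746 from limma). Neither gene separates the groups, so every direction given here rests on the labels. Markers of heart muscle were abundant: the 10 cardiomyocyte genes listed summed to between 24109.5 and 28431.4 CPM in the control libraries and to between 18926.3 and 22773.9 CPM in the mutant libraries, all 10 had a lower mean in the mutant libraries, and 9 had an unadjusted limma p under 0.05, where 6.62% of all genes were lower on that count. None of the 10 passed adjustment over all genes (smallest adjusted p = 0.206 from limma, *Tnnt2*). In such bulk samples fewer cells of a type and less RNA per cell cannot be told apart. Of markers of other outflow tract cells, 7 of 7 genes of cushion and outflow mesenchyme and 4 of 5 of the second heart field were in the table. Of the mesenchyme genes 0 of 7 had an unadjusted limma p under 0.05. The second heart field genes mark the progenitors of the outflow tract, and 2 of 4 were higher at that level, where 5.45% of all genes were. *Isl1* had a log2 fold change of 0.64 (adjusted p = 0.142 from limma) and groups that did not overlap, as 3.2% of all genes did with higher values. *Tbx1*, with 34 to 129 reads in a library, had one of 0.58 (adjusted p = 0.388 from limma). *Fgf10* was at 0.20 and *Hand2*, the most abundant of the 4, at -0.06, and the median of the 4 was 0.39. The 8 erythroid genes summed to between 1497 CPM (mutant library 4) and 5475 CPM (mutant library 2) over the 8 libraries. The part of these cells in the proteasome values was not tested.

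Promoter windows of the members were read from RefSeq, from 250 bases before to 50 bases after the annotated start, on GRCm38.p6. Of the 46 members, 38 were matched, with 41 windows. The windows of *Psma3* and *Psmb10*, the members with the smallest unadjusted p in each direction below, and of *Psmb5*, whose catalytic subunit carries the chymotrypsin-like activity and whose window holds the core of an antioxidant response element, are shown. Capitals mark matches to the 4 motifs searched on both strands, which were the antioxidant response element core TGACNNNGC, the CCAAT box, the ETS motif CCGGAAG, and the nuclear respiratory factor 1 motif GCATGCGC. The *Psma3* window lies at chr12:70974373-70974672, plus strand, that of *Psmb10* at chr8:105938343-105938642, minus strand, and that of *Psmb5* at chr14:54617946-54618245, minus strand.
Psma3: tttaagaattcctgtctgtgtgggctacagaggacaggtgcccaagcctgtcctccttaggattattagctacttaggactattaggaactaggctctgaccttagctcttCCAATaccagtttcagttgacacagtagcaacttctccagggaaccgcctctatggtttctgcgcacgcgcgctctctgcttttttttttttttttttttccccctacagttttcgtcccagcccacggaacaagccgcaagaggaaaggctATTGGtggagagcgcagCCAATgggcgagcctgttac
Psmb10: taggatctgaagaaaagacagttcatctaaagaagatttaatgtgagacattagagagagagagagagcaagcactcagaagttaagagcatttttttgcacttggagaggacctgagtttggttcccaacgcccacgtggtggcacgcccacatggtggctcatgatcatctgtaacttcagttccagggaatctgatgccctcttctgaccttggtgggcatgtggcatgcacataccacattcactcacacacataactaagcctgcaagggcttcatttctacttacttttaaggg
Psmb5: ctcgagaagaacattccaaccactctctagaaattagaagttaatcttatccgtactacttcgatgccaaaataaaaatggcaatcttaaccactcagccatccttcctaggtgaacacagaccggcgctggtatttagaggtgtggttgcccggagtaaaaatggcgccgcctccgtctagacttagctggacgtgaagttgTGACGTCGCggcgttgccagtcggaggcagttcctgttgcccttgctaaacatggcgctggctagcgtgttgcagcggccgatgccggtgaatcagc

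The *Psma3* window holds 3 matches to CCAAT, the *Psmb5* window 1 match to TGACNNNGC, and the *Psmb10* window none of the 4 motifs. TGACNNNGC, the core bound by NFE2L1, the factor that raises proteasome gene transcription when the protease is impaired, was present in 6 of 38 members, or 15.8%. It was present in 12.4% of all 32841 windows and in 14% of the 13802 windows of genes in the table. CCGGAAG, a motif bound by ETS factors, was in 15 of 38 members, or 39.5%, against 8.86% of all windows and 16.5% of the windows of genes in the table. CCAAT was in 13 members (34.2%, against 37.4% of all windows and 37.7% of the windows of genes in the table), and GCATGCGC, bound by nuclear respiratory factor 1, in 3 (7.89%, against 2.71% of all windows and 4.89% of the windows of genes in the table). There were 12 members with no match and 11 with more than 1 kind of motif. Members with more than 1 window had more chances of a match, and a match is a run of letters, not a measured site.

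The core genes other than *Psma8* and *Psmb10* had a median level of 106.9 CPM per kb of the principal transcript, from 41.0 (*Psma2*) to 171 (*Psmb6*). The 17 genes of the regulatory particle had a median of 76.0 CPM per kb, from 35.2 (*Psmd11*) to 121 (*Psmc3*). *Psmb6*, *Psma7* and *Psmb7* headed the order on this length at 171, 146 and 146 CPM per kb, and the spread of *Psma7* and *Psmb7* over libraries overlapped. The assembly chaperones of the core lay lower, from 13.3 (*Psmg3*) to 26.3 CPM per kb (*Psmg2*). Those of the regulatory particle ran from 9.95 (*Psmd5*) to 14.2 (*Psmd10*), a range that overlapped the former. By merged exons *Psmg3* (4.07 CPM per kb) lay below *Psmd5*, *Psmd9* and *Psmd10* (6.05, 4.25 and 13.9). *Psmf1* was at 7.88 CPM per kb. The inducible catalytic subunit *Psmb10* stood at 9.85 CPM per kb beside 146 for *Psmb7*, the constitutive subunit whose place it takes. *Psma8*, the testis counterpart of *Psma7*, was the lowest at 0.742 CPM per kb, from 14 to 53 reads in a library. Dividing by the merged exons of all transcripts instead lowered the medians to 53.3 for the core and 37.7 for the regulatory particle, and the order of the 46 genes on both lengths had a Spearman correlation of 0.88 across genes. The top of the order depends on the length used, since by merged exons *Psmb5* ranked 1 and *Psmc5* ranked 2, while *Psmb6*, *Psma7* and *Psmb7* ranked 8, 17 and 15.

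**Figure D1:**
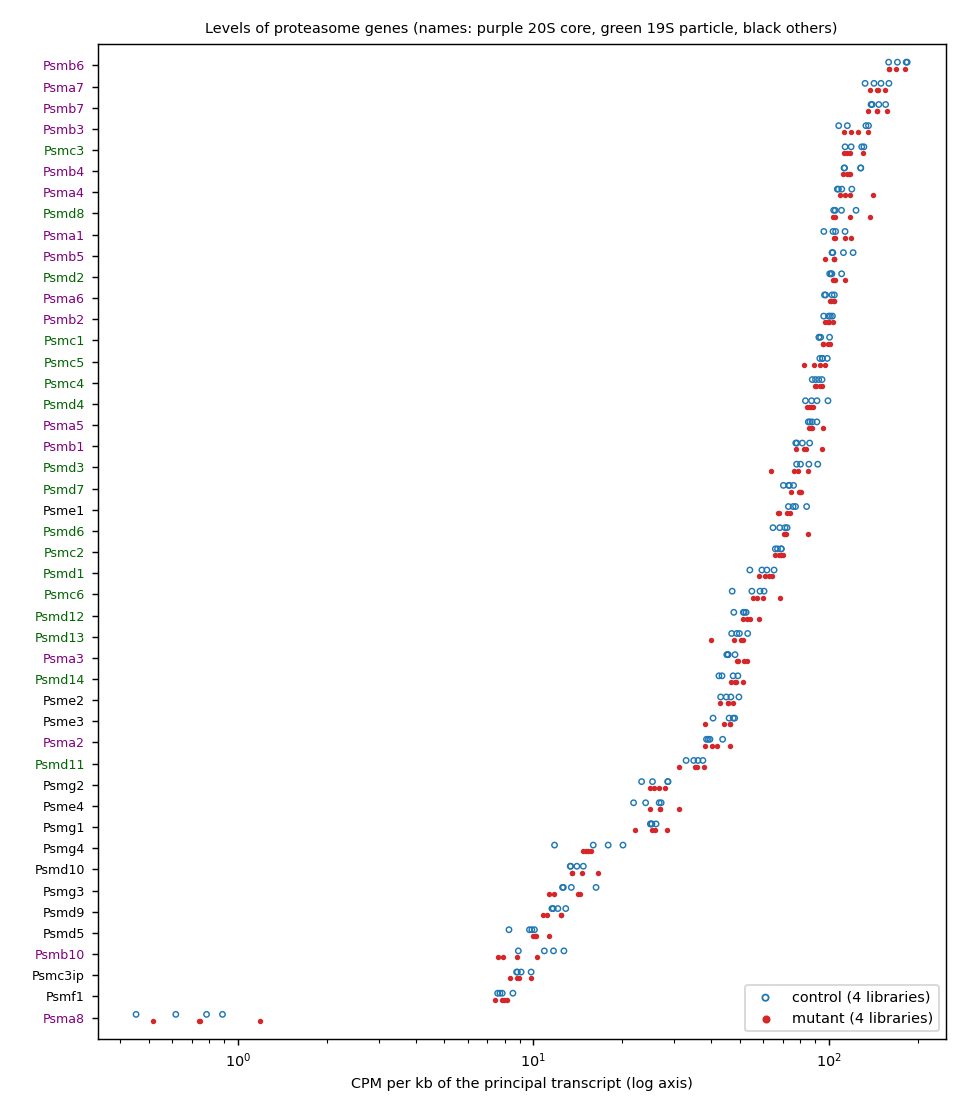
Level of each of the 46 genes in CPM per kb of the principal transcript (log axis), with 1 open blue point for each control library and 1 filled red point for each mutant library. On this length *Psmb6*, *Psma7* and *Psmb7* head the order (by merged exons *Psmb5* and *Psmc5* do), *Psmb6* at 171 and *Psma7* at 146 CPM per kb on average, while *Psmb10* (9.85) and *Psma8* (0.742) are far below the other core genes.

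Across the genotypes, proteasome transcripts differed little, with a median log2 fold change of 0.0036 over the 46 genes, or 0.0411 with the trend of each library with transcript length removed. None of the 46 genes passed the test (limma on log2(CPM + 0.5), adjusted over all genes), nor did any of the 14608 genes (0%), where the smallest adjusted p was 0.124. The study itself reported genes that differed between mutant and control tissue, some higher and more of them lower, at an adjusted p under 0.05. It used a generalized linear model in edgeR. Its result thus differs from the one here, and this absence holds for the limma fit only. At an unadjusted limma p under 0.05, 1 member, *Psma3*, was higher in the mutant libraries, against 5.45% of all genes, and 1 member, *Psmb10*, was lower, against 6.62% of all genes. The groups did not overlap for 1 member with higher values (*Psma3*), against 3.2% of all genes, and for 0 members with lower values, against 3.9% of all genes. Of the 46 log2 fold changes 26 were positive and 20 negative, and they ran from -0.34 (*Psmb10*) to 0.14 (*Psma8*). The median absolute log2 fold change was 0.06, beside 0.11 over all genes.

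The 95% confidence interval of the fold change lay within 1.2-fold either way for 34 of the 46 members (73.9%), beside 27.2% of all genes. The proteasome genes were more abundant than most, with a median level of 113.6 CPM beside 26.7 CPM over all genes. Among genes that averaged 50 CPM or more, a level chosen after the values were seen, 48.4% of 4680 genes had such an interval, and so did 27 of 34 members (79.4%). Their median SD within a genotype was 0.09 on the log2 scale, beside 0.11 for all genes above that level. The 12 members whose interval reached beyond 1.2-fold were *Psma4*, *Psma8*, *Psmb10*, *Psmc6*, *Psmd3*, *Psmd6*, *Psmd8*, *Psmd5*, *Psme1*, *Psme4*, *Psmg3* and *Psmg4*, whose intervals include differences beyond that size.

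**Figure D2:**
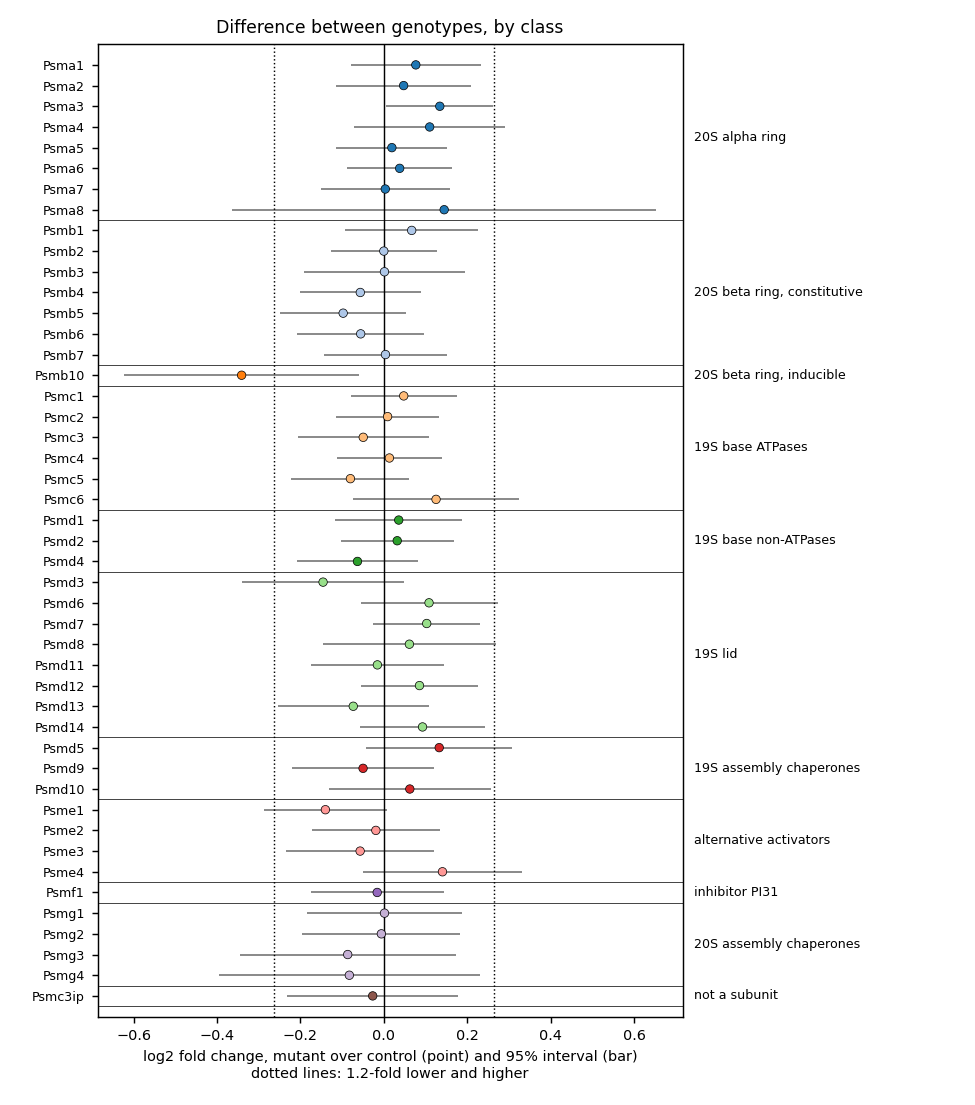
Log2 fold change of the mutant over the control libraries for each gene (points) with its 95% confidence interval (bars), by class, from limma on 4 libraries per group. Most intervals lie between the dotted lines that mark 1.2-fold, only those of *Psmb10* and *Psma3* do not cross 0, and that of *Psma8* (-0.36 to 0.65) is the widest.

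The alpha ring, which forms the outer rings of the core and its gate, had 8 of 8 genes with a positive log2 fold change, with a median of 0.06 and a range from 0.0034 (*Psma7*) to 0.14 (*Psma8*). *Psma3* was at 130.1, 129, 129.6 and 137 CPM in control libraries 1 to 4 and at 147, 151, 140.1 and 139 CPM in mutant libraries 1 to 4. The lowest mutant library was above the highest control library by less than 2 CPM. Its means were 131 ± 3.92 against 144 ± 5.55 CPM (SD, n = 4 each), and its log2 fold change was 0.13 (95% interval 0.0062 to 0.26, unadjusted p = 0.0414 and adjusted p = 0.402 from limma, exact permutation p = 0.0286, the smallest that 4 against 4 libraries can give). With the trend of each library with GC content removed, the log2 fold change of *Psma3* was 0.02 (adjusted p = 0.926 from limma). On the deposited scaling, leaving out 1 library at a time moved it between 0.11 and 0.16, and the unadjusted limma p was at or above 0.05 in 7 of these 8 fits. *Psma3* lies at chr12:70974621-70996347 on the plus strand of GRCm38 (ENSMUSG00000060073) and is overlapped by a gene on the opposite strand, *3110056K07Rik*, and whether reads were counted by strand is not given in the sources used here.

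*Psma8*, a subunit of spermatogenic cells, was at 1.04, 1.33, 0.766 and 1.503 CPM in control libraries 1 to 4 and at 1.26, 1.25, 0.878 and 2.02 CPM in mutant libraries 1 to 4. The 95% interval of its log2 fold change was -0.36 to 0.65, and the lowest and the highest value were in different genotypes. *Psma7*, the somatic counterpart, was at 121, 137, 146 and 130.2 CPM in control libraries 1 to 4 and at 133, 142, 135 and 126 CPM in mutant libraries 1 to 4, and its log2 fold change was 0.0034. The other alpha genes, *Psma1*, *Psma2*, *Psma4*, *Psma5* and *Psma6*, had log2 fold changes between 0.02 and 0.11, each with an interval that crossed 0. After removal of the GC trend 7 of the 8 alpha genes were positive, with a median log2 fold change of 0.02.

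The 3 catalytic subunits of the constitutive beta ring were at similar levels in both genotypes. *Psmb5*, which carries the chymotrypsin-like site, was at 92.3, 109, 101 and 92.9 CPM in control libraries 1 to 4 and at 93.5, 93.4, 93.7 and 87.6 CPM in mutant libraries 1 to 4. Its log2 fold change was -0.10 (95% interval -0.25 to 0.05), and the highest values were those of control libraries 2 and 3. *Psmb6*, with the caspase-like site, was at 127, 147, 146 and 136 CPM in control libraries 1 to 4 and at 135, 145, 128 and 128 CPM in mutant libraries 1 to 4, with a log2 fold change of -0.06 (-0.21 to 0.10). *Psmb7*, with the trypsin-like site, was at 163, 171, 181 and 161 CPM in control libraries 1 to 4 and at 169.7, 183, 169 and 157 CPM in mutant libraries 1 to 4, with a log2 fold change of 0.0038 (-0.14 to 0.15). All 3 intervals lay within 1.2-fold, and the groups overlapped for each of the 3 genes.

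The structural beta subunits *Psmb1*, *Psmb2*, *Psmb3* and *Psmb4* had intervals within 1.2-fold too. *Psmb1* had the most positive value of the ring and was at 137, 136, 152 and 143 CPM in control libraries 1 to 4 and at 148, 167, 145 and 136 CPM in mutant libraries 1 to 4, with a log2 fold change of 0.07. *Psmb2* was among the steadiest members, with all 8 libraries between 82.6 and 88.7 CPM. Over the 7 constitutive beta genes the median log2 fold change was -0.0001, with 3 positive and 4 negative.

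*Psmb10* had the most negative log2 fold change of the 46 members. It encodes the trypsin-like catalytic subunit of the immunoproteasome, a form of the core that interferon induces and that cells of the immune system express. *Psmb10* was at 14.3, 15.4, 16.7 and 11.7 CPM in control libraries 1 to 4 and at 13.5, 10.3, 11.5 and 9.94 CPM in mutant libraries 1 to 4. The lowest control library, control 4, was below the highest mutant library, mutant 1, so the groups overlapped. Its means were 14.5 ± 2.11 against 11.3 ± 1.595 CPM (SD, n = 4 each). The log2 fold change was -0.34 (standard error 0.13, 95% interval -0.62 to -0.06), with an unadjusted p of 0.0217 and an adjusted p of 0.359 from limma and an exact permutation p of 0.0571. Without the GC trend it was -0.26 (adjusted p = 0.417 from limma). Leaving out 1 library at a time moved it between -0.44 and -0.27, and the unadjusted limma p was 0.0505, 0.0742 and 0.0667 without control library 2, control library 3 and mutant library 4. It had 162 to 413 reads in a library, beside 1147 to 2882 for *Psmb5*. *Psmb10* lies at chr8:105935735-105938444 on the minus strand of GRCm38 (ENSMUSG00000031897), with the antisense gene *Gm16156* across it on the opposite strand.

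Genes that act with the immunoproteasome had values in both directions. Of the 11 listed genes of MHC class I presentation, 9 were in the table, and 0 had an unadjusted limma p under 0.05, 3 being positive and 6 negative with a median log2 fold change of -0.08. *B2m*, the light chain of class I molecules, was at 76.2, 80.1, 75.6 and 87.4 CPM in control libraries 1 to 4 and at 82.6, 101, 85.5 and 80.9 CPM in mutant libraries 1 to 4 (log2 fold change 0.13). *Tap1*, which carries peptides to the class I molecules, was near 1 CPM in all libraries, at 1.04, 0.948, 1.05 and 1.27 CPM in control libraries 1 to 4 and at 1.26, 1.40, 0.683 and 0.952 CPM in mutant libraries 1 to 4. The 10 macrophage and leukocyte markers summed to between 55.5 and 71.6 CPM in the control libraries and between 59.2 and 86.1 CPM in the mutant libraries. Of these 10, 7 were positive and 3 negative, with a median log2 fold change of 0.04. At an unadjusted limma p under 0.05, 0 were higher and 1 lower, against 5.45% and 6.62% of all genes. *Ptprc*, *Csf1r* and *C1qa* had log2 fold changes of 0.06, 0.02 and 0.20, *Fcgr3* the highest at 0.32, and *Mrc1* -0.26. *Cd68* was lower in all mutant libraries than in any control library (-0.42, adjusted p = 0.351 from limma), where 3.9% of all genes were. The part of such cells in the *Psmb10* values was not tested.

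**Figure D3:**
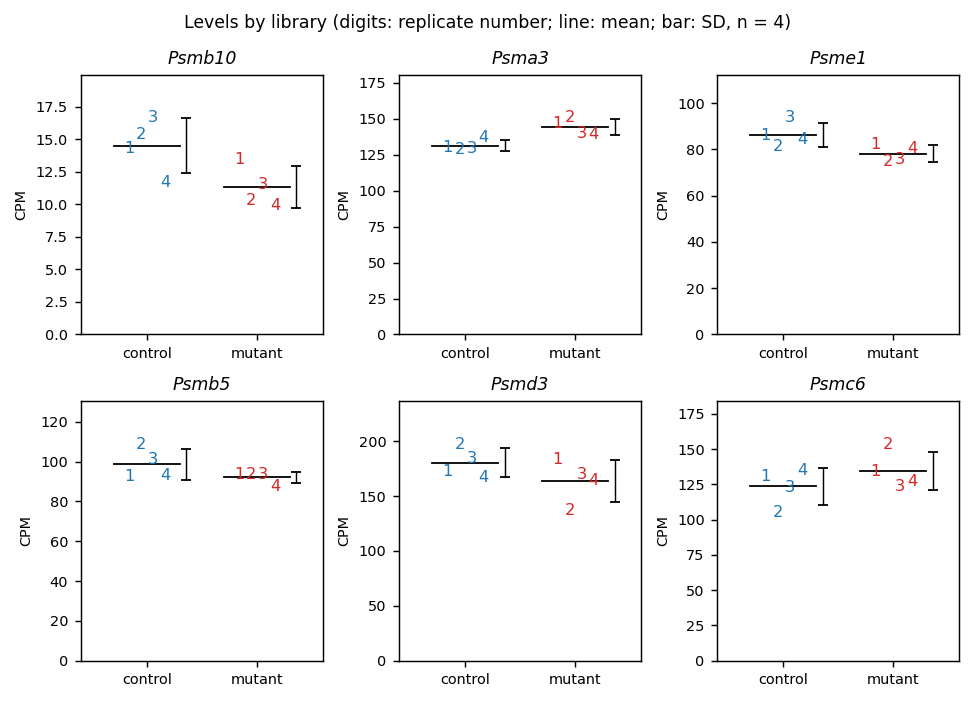
CPM of 6 proteasome genes by group, with the digit of each replicate as the point, the group mean as a line and the SD as a bar (n = 4). *Psmb10* averages 14.5 CPM in the control and 11.3 CPM in the mutant libraries with overlapping points, the *Psma3* points do not overlap, and mutant library 2 lies apart from the other mutant libraries for *Psmd3* and *Psmc6*.

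In the regulatory particle, none of the 17 genes had an unadjusted limma p under 0.05 in either direction. The 6 ATPases of the base, which unfold the substrate, had a median log2 fold change of 0.01. *Psmc6* had the most positive value and was at 131, 105, 123 and 135 CPM in control libraries 1 to 4 and at 134, 153, 124 and 127 CPM in mutant libraries 1 to 4. Control library 2 was the lowest and mutant library 2 the highest of the 8, and the log2 fold change was 0.13 (95% interval -0.07 to 0.32), or -0.04 without the GC trend. *Psmc5* had the most negative value and was at 130.2, 125, 123 and 125 CPM in control libraries 1 to 4 and at 128, 109, 118 and 123 CPM in mutant libraries 1 to 4, with a log2 fold change of -0.08 (-0.22 to 0.06). *Psmc2* and *Psmc4* stayed within 1.06-fold and 1.08-fold from the lowest to the highest of the 8 libraries.

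The 3 other subunits of the base include *Psmd1* and *Psmd2*, the large scaffold subunits, and *Psmd4*, a receptor for ubiquitin chains. *Psmd1* was at 192, 203, 168 and 185 CPM in control libraries 1 to 4 and at 189, 200.005, 181 and 196 CPM in mutant libraries 1 to 4, with a log2 fold change of 0.04 (-0.12 to 0.19). *Psmd4* was at 111, 132, 122 and 117 CPM in control libraries 1 to 4 and at 118, 114, 113 and 116 CPM in mutant libraries 1 to 4, with a log2 fold change of -0.06 (-0.21 to 0.08). For both genes the groups overlapped and the intervals lay within 1.2-fold. *Psmd2* had the most reads of the members, with means of 308 ± 13.4 against 315 ± 14.3 CPM (SD, n = 4 each).

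The lid, which removes the ubiquitin chain before the substrate enters, had 5 positive and 3 negative genes of 8, and a median log2 fold change of 0.07. *Psmd6* was at 94.7, 89.9, 98.8 and 100.4 CPM in control libraries 1 to 4 and at 99.7, 118, 98.7 and 98.0 CPM in mutant libraries 1 to 4. Mutant library 2 alone stood above the other 7, and the log2 fold change was 0.11 (-0.06 to 0.27). *Psmd3* was at 172, 197, 184 and 167 CPM in control libraries 1 to 4 and at 183, 137, 169.7 and 164 CPM in mutant libraries 1 to 4. Mutant library 2 was the lowest of the 8 here, and the log2 fold change was -0.15 (-0.34 to 0.05). *Psmd14*, the deubiquitinase of the lid, had means of 70.5 ± 4.94 against 75.1 ± 2.91 CPM (SD, n = 4 each) and a log2 fold change of 0.09 (-0.06 to 0.24). *Psmd7*, its partner in the lid, had a log2 fold change of 0.10 (adjusted p = 0.490 from limma). Without the GC trend it was 0.11 (unadjusted p = 0.0494 and adjusted p = 0.445 from limma). In that fit *Psmd7* and *Psmb10* were the only members with an unadjusted limma p under 0.05, where 11.2% of all genes had one. *Psmd8*, *Psmd11*, *Psmd12* and *Psmd13* had log2 fold changes between -0.07 and 0.09.

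Core and regulatory particle differed in proportion between the genotypes by less than the spread between libraries. The mean deviation of the core genes minus that of the regulatory particle genes, on the log2 scale, was 0.0054 ± 0.06 in the control and -0.0054 ± 0.03 in the mutant libraries (SD, n = 4 each), a difference of -0.01. In single libraries it was -0.07, 0.03, 0.07 and -0.01 in control libraries 1 to 4 and -0.02, 0.05, -0.03 and -0.02 in mutant libraries 1 to 4. The ratio of summed CPM, core over regulatory particle, was 0.725 ± 0.0337 in the control and 0.728 ± 0.0226 in the mutant libraries. Summed core CPM ran from 1665 (control library 1) to 1887 (mutant library 2), and summed regulatory particle CPM only from 2364 (control library 4) to 2487 (mutant library 2). All members together summed to 4765 ± 63.4 CPM in the control and 4819 ± 148 CPM in the mutant libraries, which was between 0.465% and 0.502% of the listed reads.

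The spread between libraries of a genotype was larger for the core than for the regulatory particle. The SD of the mean deviation over the 4 libraries was 0.05 for the core in both genotypes, and 0.01 (control) and 0.02 (mutant) for the regulatory particle. Both genotypes held a library with low core values (control 1 at -0.06, mutant 4 at -0.04) and one with high values (control 3 at 0.05, mutant 2 at 0.07). This difference in spread was not tested.

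The assembly chaperones of the regulatory particle guide the base ATPases into their ring, and none had an unadjusted limma p under 0.05. *Psmd5* was at 42.7, 36.4, 44.4 and 43.5 CPM in control libraries 1 to 4 and at 44.9, 49.6, 43.9 and 44.6 CPM in mutant libraries 1 to 4. The log2 fold change was 0.13 (95% interval -0.04 to 0.31, adjusted p = 0.514 from limma), the lowest value being that of control library 2. *Psmd9* was at 30.4, 31.5, 33.5 and 30.1 CPM in control libraries 1 to 4 and at 32.2, 28.9, 32.1 and 27.9 CPM in mutant libraries 1 to 4, with a log2 fold change of -0.05. *Psmd10*, also known as gankyrin, was at 19.1, 20.1, 21.1 and 19.2 CPM in control libraries 1 to 4 and at 20.9, 23.7, 19.4 and 19.3 CPM in mutant libraries 1 to 4, with a log2 fold change of 0.06. The groups overlapped for all 3.

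The chaperones of the core work as pairs, *Psmg1* with *Psmg2* and *Psmg3* with *Psmg4*, to assemble the alpha ring. *Psmg1* was at 27.2, 26.1, 26.3 and 26.1 CPM in control libraries 1 to 4 and at 29.6, 26.4, 23.1 and 27.1 CPM in mutant libraries 1 to 4, and its log2 fold change was 0.0015. *Psmg2* was at 26.8, 24.7, 30.2 and 30.3 CPM in control libraries 1 to 4 and at 27.2, 29.5, 28.3 and 26.2 CPM in mutant libraries 1 to 4, and its log2 fold change was -0.0060. The groups overlapped for this pair, with the highest *Psmg1* value in a mutant and the highest *Psmg2* value in a control library. *Psmg3* was at 11.9, 14.4, 11.2 and 11.1 CPM in control libraries 1 to 4 and at 12.5, 10.4, 12.7 and 10.01 CPM in mutant libraries 1 to 4, where control library 2 was the highest, and its log2 fold change was -0.09 (-0.35 to 0.17). The control libraries of *Psmg4* were more spread than the mutant libraries, since *Psmg4* was at 6.56, 9.96, 11.2 and 8.86 CPM in control libraries 1 to 4 and at 8.73, 8.35, 8.19 and 8.53 CPM in mutant libraries 1 to 4, with a log2 fold change of -0.08 (-0.40 to 0.23). The 4 genes had a median log2 fold change of -0.04, and 0 of 4 had an unadjusted limma p under 0.05.

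Of the other activators of the core, *Psme1* and *Psme2* form a mixed ring that interferon induces, *Psme3* forms a nuclear ring, and *Psme4* is a single large chain. *Psme1* was at 85.9, 81.3, 93.7 and 84.3 CPM in control libraries 1 to 4 and at 82.3, 74.7, 75.5 and 80.3 CPM in mutant libraries 1 to 4. The highest 3 of the 8 values were those of control libraries 3, 1 and 4, and the log2 fold change was -0.14 (95% interval -0.29 to 0.01, unadjusted limma p = 0.0597, exact permutation p = 0.0571), or -0.06 without the GC trend. Its partner *Psme2* had means of 44.4 ± 2.68 against 43.8 ± 1.84 CPM (SD, n = 4 each) and a log2 fold change of -0.02 (-0.17 to 0.14). *Psme4* was at 176, 142, 156 and 173 CPM in control libraries 1 to 4 and at 162, 202, 175 and 174 CPM in mutant libraries 1 to 4, with a log2 fold change of 0.14 (-0.05 to 0.33), and of 0.07 without the GC trend. Its lowest value was in control library 2 and its highest in mutant library 2. *Psme3* had a log2 fold change of -0.06 (-0.24 to 0.12). The inhibitor *Psmf1*, also called PI31, was at 29.9, 29.4, 28.9 and 32.5 CPM in control libraries 1 to 4 and at 28.2, 31.1, 30.3 and 29.8 CPM in mutant libraries 1 to 4, with a log2 fold change of -0.02 (-0.18 to 0.14). *Psmc3ip*, the gene that is no proteasome subunit, had a log2 fold change of -0.03 (-0.23 to 0.18).

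**Figure D4:**
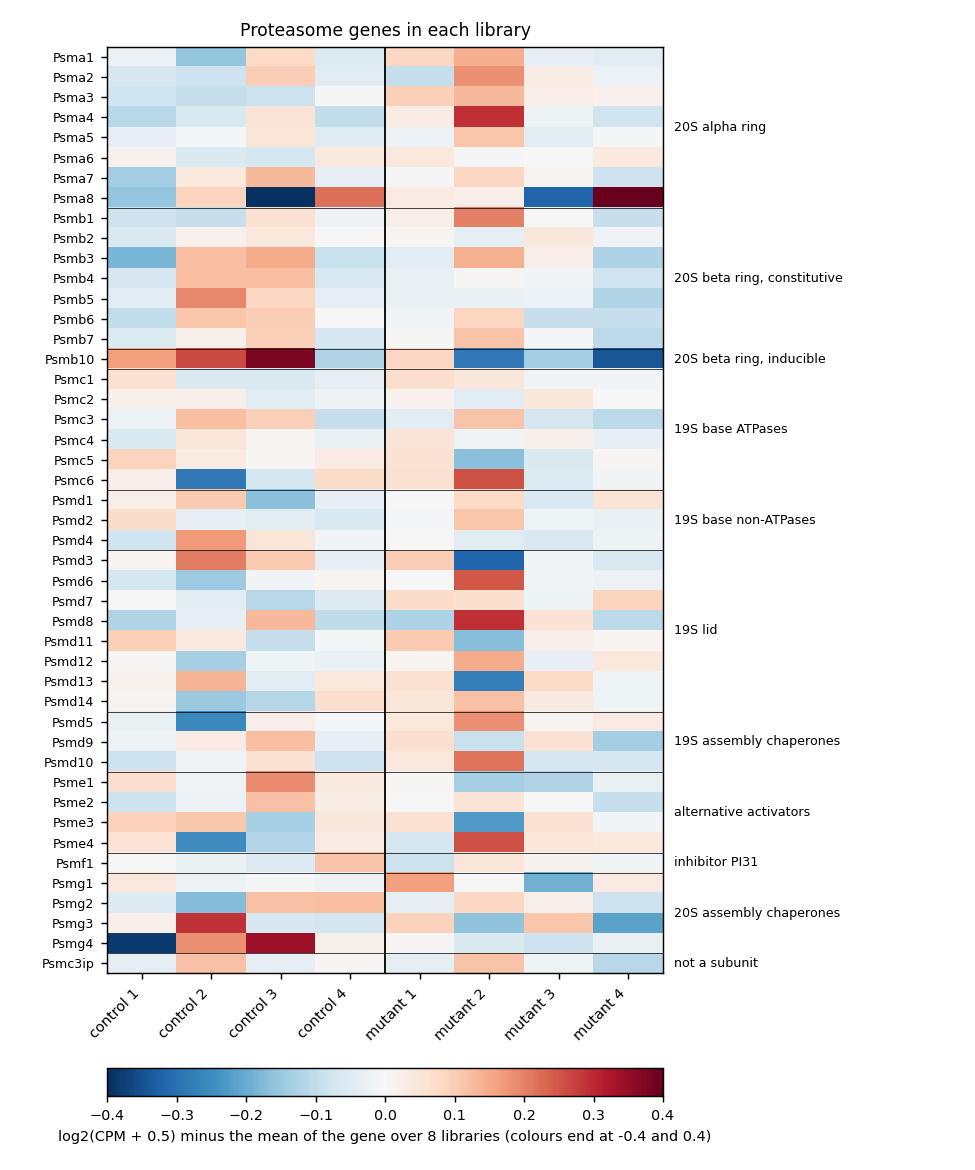
Deviation of each gene in each library from its own mean over the 8 libraries, log2(CPM + 0.5), with colours ending at -0.4 and 0.4, genes in rows by class and libraries in columns. The columns of control library 2, control library 3 and mutant library 2 hold the strongest colours across many genes, and mutant library 2 is the highest of the 8 libraries in 16 of 46 genes.

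Mutant library 2 and control library 2 held the most extreme values. Mutant library 2 was the highest of the 8 in 16 members and the lowest in 6, and control library 2 the highest in 10 and the lowest in 10. The cardiomyocyte sum was lowest in mutant library 2 (18926 CPM). Its erythroid (5475 CPM), mesenchyme (2034 CPM) and leukocyte (86.1 CPM) sums were the highest of the 8. Its second heart field sum (235 CPM) was neither. The part of cell content in its proteasome values was not tested. Across the 46 members, the deviation of a library from the mean ran with the GC content of the transcript in control libraries 2 and 3. The Pearson correlations across genes were 0.59 (0.45 over all genes) and 0.49 (0.32 over all genes). The sign was opposite in mutant library 2 (-0.46 and -0.38) and in mutant library 4 (-0.36 and -0.18). In the remaining libraries the correlation among members lay between -0.21 (control library 4) and -0.07 (control library 1). Genes are not independent replicates, and the points of a library share its depth and preparation.

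The sign of the log2 fold change followed the GC content of the members. Of the 23 members below the median GC content of 49.7%, 20 had a positive log2 fold change (median 0.06), and of the 23 at or above it, 6 did (median -0.06). The same split over all genes gave 68.6% positive of 7477 genes of low GC content and 31.2% of 7117 genes of high GC content, with medians of 0.07 and -0.06. Without mutant library 2 the counts among members were 17 and 7, without control library 2 they were 20 and 7, and without control library 3 they were 19 and 9. With the GC trend of each library removed, 15 of 23 and 9 of 23 members were positive, with medians of 0.0052 and -0.02. The alpha ring genes had a median GC content of 44.5%, and the constitutive beta genes of 51%. A cause of the trend was not tested.

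**Figure D5:**
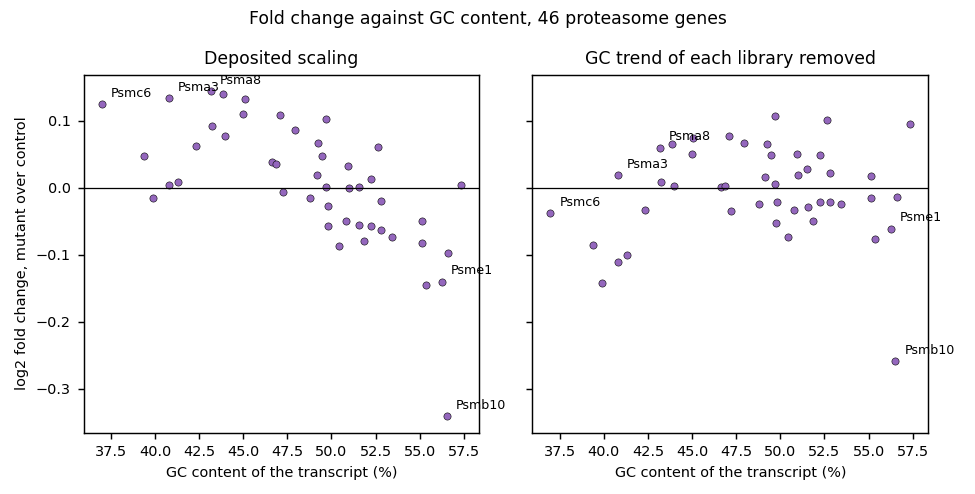
Log2 fold change of each of the 46 genes against the GC content of its transcript in percent, with the deposited scaling (left) and with the GC trend of each library removed (right). On the left 20 of 23 genes below 49.7% GC are positive and 6 of 23 above are, on the right 15 and 9, and *Psmb10* stays the lowest point in both panels.

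The other genes of the pathway were examined from lists that hold no members. Of 47 genes in 6 lists (further subunits and assembly, bound regulators, transcription of proteasome genes, ubiquitin and its activation, the VCP segregase, and MHC class I presentation), 0 were higher and 0 were lower at an unadjusted limma p under 0.05, where 5.45% and 6.62% of all genes were, and their median log2 fold change was -0.0069. *Pomp*, which guides maturation of the beta ring, was at 78.5, 87.9, 84.4 and 89.6 CPM in control libraries 1 to 4 and at 87.1, 83.2, 88.5 and 84.6 CPM in mutant libraries 1 to 4, with a log2 fold change of 0.01 (-0.13 to 0.15). *Adrm1*, a ubiquitin receptor of the regulatory particle, was at 84.7, 104, 93.1 and 84.4 CPM in control libraries 1 to 4 and at 90.8, 69.1, 85.8 and 82.5 CPM in mutant libraries 1 to 4, with a log2 fold change of -0.16 (-0.37 to 0.05). *Sem1*, a small lid subunit, was at 71.7, 90.7, 88.1 and 75.5 CPM in control libraries 1 to 4 and at 70.2, 81.9, 75.4 and 70.9 CPM in mutant libraries 1 to 4, with a log2 fold change of -0.12 (-0.31 to 0.07). The groups overlapped for these 3 genes and for the next. *Nfe2l1*, the factor named above for its motif, was at 225, 233, 225 and 212 CPM in control libraries 1 to 4 and at 215, 202, 224 and 229 CPM in mutant libraries 1 to 4, with a log2 fold change of -0.04 (-0.18 to 0.10).

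*Uba1*, the main activating enzyme of ubiquitin, was at 525, 524, 490.1 and 494 CPM in control libraries 1 to 4 and at 469.5, 444, 478 and 477 CPM in mutant libraries 1 to 4, so that every mutant library was below every control library (log2 fold change -0.12, unadjusted p = 0.0687 from limma, exact permutation p = 0.0286, the smallest 4 against 4 can give). It is named here after its values were seen, as 1 of the 47 whose groups did not overlap with lower values, where 3.9% of all genes did so.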

How the data were processed

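RNA-seq libraries of pooled outflow tract tissue were analysed, 4 labelled control and 4 labelled Mib1V943F/+ Gata6STOP/+, each from polyadenylated RNA prepared with a directional kit. The authors removed adapters with cutadapt, quantified expression with RSEM on GRCm38 and the Ensembl annotation, and scaled by TMM in edgeR. Their methods state that genes with 1 CPM in 3 or more samples were retained, while every gene deposited reached it in 4 or more. The deposited unit is CPM, as the authors scaled it. In each column, the values are whole multiples of 1 constant, between 0.0325 and 0.0948 CPM, from which the reads were taken. They were used for depth only, and intervals of the fit cover the spread between libraries, which the labels do not tie to single embryos. The precision of a gene is limited by its reads and by 4 libraries a group.

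All 14608 genes were tested together with limma 3.58.1 (R 4.3.3), by lmFit and eBayes with a trend on log2(CPM + 0.5), two-sided, with Benjamini-Hochberg adjustment over all genes and a threshold of 0.05. Fold changes on this scale understate those of genes near 1 CPM. Single genes were also tested with an exact permutation over the 70 relabellings, two-sided and unadjusted. Transcript lengths and GC content came from the annotation of GRCm38, and GC or length trends were removed by loess (span 0.5) for each library. Of the 46 members, 17 are overlapped by a gene on the opposite strand, and the strand setting of the counting is not given in the sources used here.

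The members and lists were chosen with earlier results of these data known. Values in every library are given for the catalytic beta subunits and, of their inducible counterparts, Psmb10 alone. They are given for members with an unadjusted p under 0.05, the most positive and most negative member of each class, the assembly chaperones, Psmf1, and Pomp, Adrm1, Sem1 and Nfe2l1. B2m, Tap1 and Uba1 have them too, outside this rule. Others named follow their class. The alternatives were other scalings, pseudocounts, a filter on low values, removal of the GC or length trend, the replicate number as a block, and leaving out each library. No column of the table was left out. The markers listed for other cell types are smooth muscle, endothelium and endocardium, neural crest and epicardium, besides those given in the results: of their 5, 8, 4 and 4 genes in the table, 1, 0, 0 and 0 were higher and 1, 2, 0 and 0 lower at an unadjusted limma p under 0.05, where 5.45% and 6.62% of all genes were. Of the 8 erythroid genes 0 were higher or lower on that count.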

Additional observations from a re-analysis of the deposited data

Results flagged for a closer look

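Of 94 sets of 4 libraries checked for 1 library far from the other 3, 6 stood out, where chance gives about 1 in 20. Mutant library 2 was the high one in 3 of the 6. *Psmd6* was at 118 CPM in mutant library 2, beside 98.0 to 99.7 CPM in the other mutant libraries. *Psmd2*, a scaffold subunit of the regulatory particle, was at 336 CPM in mutant library 2, beside 305 to 310.2 CPM. The core minus regulatory particle value of mutant library 2 was 0.0464, beside -0.0259 to -0.0185 on the log2 scale. *Psma3* was at 137 CPM in control library 4, beside 128.7 to 130.1 CPM in the other control libraries, which brings that library next to the lowest mutant value. *Psmb5* was at 87.6 CPM in mutant library 4, beside 93.4 to 93.7 CPM. *Psmc1*, a base ATPase, was at 160.2 CPM in control library 1, beside 147.6 to 149.5 CPM.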

How the results depend on the processing

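No gene and no member passed the threshold in limma under any of the 16 alternatives, where between 1121 (without control library 2) and 2163 genes (without control library 4) had an unadjusted limma p under 0.05, beside 1763 as reported. The tests on counts that were planned as alternatives were not run, although the deposited CPM are whole multiples of 1 constant in each column. The median log2 fold change of the members moved from 0.0036 to 0.0411 with the length trend removed, on 13248 genes, and lay between 0.0005 and 0.0227 when each library was left out in turn. The core minus regulatory particle difference ran from -0.0353 to 0.0129. Psmb10 stayed negative (-0.44 to -0.26) and Psma3 positive (0.02 to 0.16) in all 16, with the lowest adjusted p at 0.196 and 0.311 in limma. The unadjusted limma p of Psma3 was at or above 0.05 in 7 of the 8 fits that left out a library. The replicate numbers did not pair the libraries (correlations of same-numbered libraries 0.03, -0.19, 0.03 and -0.05). With the replicate block, 0 genes passed, 1304 genes had an unadjusted p under 0.05, the smallest adjusted p was 0.412, and the unadjusted limma p of Psma3 was 0.0938. Depth limits most the members with the fewest reads, Psma8 (14 to 53 in a library), Psmg4 (105 to 277) and Psmc3ip (134 to 355). Without Psma8 and Psmb10 the core minus regulatory particle difference, chosen after seeing the data, was 0.004.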
